A study of Homo sapiens with 27 samples.

Results

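The 7 genes CDKN1A, CDKN1B, CDKN1C, CDKN2A, CDKN2B, CDKN2C and CDKN2D, which encode the protein inhibitors of cyclin-dependent kinases (CDKs), were described in IMR90, fibroblasts from normal human fetal lung that are kept as a cell line. They were chosen by symbol, with no measured value, out of 60534 gene IDs counted in every library. All cells were wild type and grown in 10% serum. There were 27 libraries, 13 of RNA-seq, which measures mRNA, and 14 of Ribo-seq, which sequences the mRNA stretches that ribosomes shield from RNase. Cycling cells were harvested at 40% to 60% confluency (2 RNA-seq and 3 Ribo-seq libraries), and quiescent cells were arrested by contact inhibition (3 and 3). Irradiated cells received 15 Gy of ionizing radiation and were harvested 10 days later as senescent cells (3 and 3). Etoposide, which traps topoisomerase II on DNA and leaves breaks, induced senescence in cells that got 3 treatments of 50 µM within 10 days (3 and 3). Cycling cells were also treated for 3 h with 25 nM thapsigargin, a blocker of the SERCA calcium pump that causes endoplasmic reticulum stress (2 and 2). A label of all 4 thapsigargin libraries calls them protected fragments, so their RNA-seq and Ribo-seq libraries were told apart by title alone, and each thapsigargin value rests on that. The medium of the thapsigargin cells is described without the antibiotics and antimycotics named for the other states. One line carries all results, and nothing in the labels says whether the libraries of a state came from separate cultures, so p-values measure the spread between these libraries, which may be technical.

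The kinases CDK4 and CDK6 with D cyclins, and CDK2 with cyclins E and A, phosphorylate the retinoblastoma protein (RB) and so release E2F factors, which transcribe the genes of DNA replication. CDK inhibitors hold this step back and fall into 2 families. The Cip/Kip proteins p21 (CDKN1A), p27 (CDKN1B) and p57 (CDKN1C) bind complexes of several cyclins and CDKs, and the INK4 proteins p16 (CDKN2A), p15 (CDKN2B), p18 (CDKN2C) and p19 (CDKN2D) bind CDK4 and CDK6 alone. CDKN2A also encodes p14ARF, from another first exon and another reading frame. ARF binds MDM2. In fibroblasts p21 and p16 are the inhibitors best known from senescence, p21 as a gene induced by DNA damage and p16 as a gene that Polycomb proteins repress in young cells. These cells expressed the fibroblast markers fixed for the check: 10 of 10 were above 1 count per 1e6 (CPM) in each state, summing to 11136 to 19442 CPM per library. No leukocyte marker of 3 and at most 1 endothelial marker of 4 passed 1 CPM in a state, and of 5 epithelial markers KRT8 and KRT19 did, with CDH1 at or below 0.351 CPM and SFTPC at or below 0.0393 CPM. The epithelial list summed to 101 to 111 CPM under thapsigargin and 15.5 to 45.5 CPM in the other states. The smooth muscle markers MYH11 and DES summed to 6.61 to 7.47 CPM in cycling cells, 13.1 to 18.99 with quiescence, 38.0 to 55.5 after radiation, 7.41 to 12.6 after etoposide and 1.46 to 1.98 CPM after thapsigargin. The part of these lists in the results was not tested.

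All 7 genes lie on the GRCh38.p14 assembly, CDKN1A on chromosome 6 (36676463 to 36687332), CDKN1B on 12 (12717368 to 12722369), CDKN1C on 11 (2883218 to 2885775), CDKN2C on 1 (50960745 to 50974634) and CDKN2D on 19 (10566460 to 10568979). CDKN2A (21967752 to 21995324) and CDKN2B (22002903 to 22009313) are neighbours on the minus strand of chromosome 9, 7.579 kb apart. RefSeq promoter windows of the same assembly were matched by symbol for 6 of the 7 genes, in 9 windows, and their 250 bases before the start site are shown for the gene that rose most, for the neighbours on chromosome 9 and for the gene that fell most (for CDKN2B the 242 that lie outside the annotated gene). CDKN2A is shown at the start of the p16 transcript, and this window and those of CDKN1A and CDKN2C lie inside the gene spans given above, before an internal start site. Each is written 5′ to 3′ on the gene's strand, and capitals mark the GC box GGGCGG and the E2F core TTCCCGC, searched on both strands.
CDKN1A, chr6:36678464-36678713, plus strand: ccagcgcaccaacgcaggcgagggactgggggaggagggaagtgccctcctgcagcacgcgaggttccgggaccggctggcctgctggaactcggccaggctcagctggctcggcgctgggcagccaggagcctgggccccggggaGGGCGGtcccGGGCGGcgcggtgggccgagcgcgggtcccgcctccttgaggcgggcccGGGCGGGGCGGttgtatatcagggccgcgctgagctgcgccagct
CDKN2A, chr9:21974858-21975107, minus strand: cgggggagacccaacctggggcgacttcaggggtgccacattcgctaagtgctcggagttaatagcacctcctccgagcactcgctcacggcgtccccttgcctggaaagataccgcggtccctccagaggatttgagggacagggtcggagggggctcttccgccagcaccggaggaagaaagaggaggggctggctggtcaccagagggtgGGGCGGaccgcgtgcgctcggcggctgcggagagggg
CDKN2B, chr9:22009314-22009555, minus strand: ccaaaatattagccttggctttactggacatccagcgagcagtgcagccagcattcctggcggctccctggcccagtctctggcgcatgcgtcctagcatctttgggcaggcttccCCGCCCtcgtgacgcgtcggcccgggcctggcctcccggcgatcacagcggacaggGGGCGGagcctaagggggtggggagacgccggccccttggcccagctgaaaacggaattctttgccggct
CDKN2C, chr1:50968456-50968705, plus strand: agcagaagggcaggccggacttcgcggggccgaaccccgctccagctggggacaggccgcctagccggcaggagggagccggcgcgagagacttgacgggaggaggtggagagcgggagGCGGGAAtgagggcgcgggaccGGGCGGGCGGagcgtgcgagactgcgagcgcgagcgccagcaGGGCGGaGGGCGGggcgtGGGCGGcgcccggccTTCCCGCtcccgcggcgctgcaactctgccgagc
The CDKN2C window held the E2F core in 2 copies, a motif present in 5.52% of 35116 promoter windows, and the GC box in 5 copies. The GC box, a binding motif of SP factors, stood in 42.6% of windows, and copies that follow each other directly can share bases. CDKN1A held 4 GC boxes, CDKN2B 2 and CDKN2A 1, and the letters of the E2F core were in none of these 3 windows. The other 2 CDKN2C start sites held no E2F core, and neither did CDKN1B or CDKN2D. A match describes letters only.

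The libraries differed in depth and in mapping. In units of 1e6 reads, gene counts were 20.6 to 57.1 in RNA-seq and 1.94 to 20.0 in Ribo-seq, where the thapsigargin libraries were the shallowest. The thapsigargin libraries also stood apart in mapping: 1.35% to 1.40% of their RNA-seq reads were unmapped against 27.8% to 40.6% in the other states, and 65.2% to 66.9% of their Ribo-seq reads mapped to several places against 19.8% to 31.9%. These features cannot be told apart from the treatment. The 5 markers of dividing cells (MKI67, TOP2A, CCNB1, CDK1 and LMNB1) summed to 724 to 775 CPM in cycling, 235 to 447 at contact inhibition, 79.0 to 88.9 after radiation, 48.6 to 68.6 after etoposide and 552 to 602 CPM after thapsigargin. Their part in the levels below was not tested, and in bulk cultures a change in the share of cells with a transcript and a change of its amount per cell cannot be told apart.

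All 7 genes passed the filter on low counts in both assays. Against cycling cells, RNA-seq called 2 of them higher and 1 lower in quiescent cells, where 5.18% of all genes were called higher and 10.4% lower. In irradiated cells 3 were higher and 2 lower (all genes: 16.2% and 18.8%), in etoposide-treated cells 2 and 3 (16.8% and 17.8%), and under thapsigargin 3 were called, all lower (11.7% and 12.8%). A gene was called at a Benjamini-Hochberg adjusted p under 0.05 over all genes tested, by the quasi-likelihood test of edgeR, which gave all adjusted p-values below. Ribo-seq called 3 in quiescent cells, all higher (all genes: 7.09% higher and 14.6% lower), 3 higher and 1 lower in irradiated cells (17.2% and 22.6%), 3 and 3 in etoposide-treated cells (16.4% and 17.6%) and 2 and 1 under thapsigargin (20% and 24.4%). The median log2 fold change of the 7 genes in RNA-seq was 0.43 at contact inhibition, 0.29 in irradiated, -0.13 in etoposide-treated and -0.54 in thapsigargin-treated cells, with a median over all genes between -0.03 and 0.03. The inhibitors thus did not move as 1 group: CDKN1A, CDKN2A and CDKN2B were on the higher side in arrested cells, CDKN1B and CDKN2C on the lower side in senescent cells, and CDKN2D was called in none. The 4 comparisons share the cycling libraries and so are not independent of each other.

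**Figure D1:**
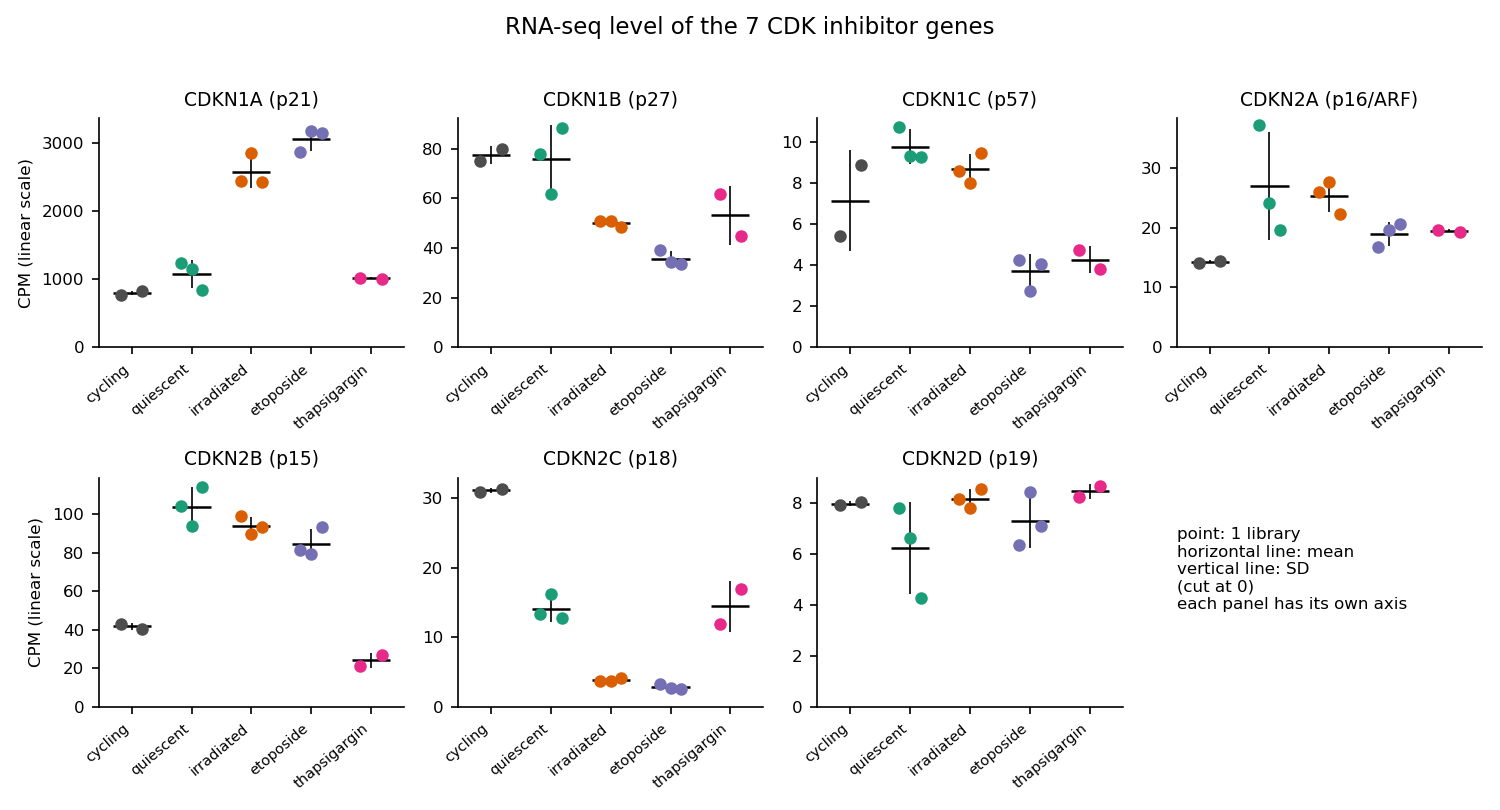
RNA-seq level of each CDK inhibitor gene in CPM on a linear axis that starts at 0, by state. Points are libraries, horizontal lines means and vertical lines SD (2 or 3 libraries a state). CDKN1A is at 2433 to 3182 CPM in the senescent libraries and at most 1234 CPM elsewhere, and CDKN2C is highest in the cycling libraries.

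CDKN1A, whose product p21 blocks CDK2 and is induced by DNA damage, was the inhibitor with the clearest rise in both kinds of senescence. Its mRNA level was 775 and 824 CPM in the cycling libraries, 1234, 1145 and 842 at contact inhibition, 2448, 2862 and 2433 after radiation, 2865, 3182 and 3149.7 after etoposide and 1026 and 1008 CPM after thapsigargin. The senescent libraries were all above the others, the quiescent and thapsigargin ranges overlapped, and the cycling libraries were lowest. CDKN1A rose 3.23-fold with radiation (log2 1.69 ± 0.16 SE, edgeR adjusted p = 3.23e-06) and 3.84-fold with etoposide (1.94 ± 0.16, adjusted p = 7.84e-07). It also rose against quiescent cells, by 1.27 ± 0.13 (adjusted p = 2.93e-05) and 1.51 ± 0.13 (2.5e-06) respectively. In quiescent cells themselves the difference of 0.43 ± 0.15 was not called (adjusted p = 0.0724), but was called at 0.57 without quiescent RNA-seq replicate 3 (adjusted p = 0.00671) and at 0.42 by DESeq2 (adjusted p = 0.0432). Under thapsigargin the difference was 0.35 ± 0.16 and not called (adjusted p = 0.137).

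The footprints of CDKN1A were also highest in the senescent states. They were 741, 608 and 647 CPM in cycling, 895, 738 and 1034 at contact inhibition, 1978, 2101 and 2333 after radiation, 2886, 2691 and 2776 after etoposide and 1062 and 896 CPM after thapsigargin. Only the lowest quiescent library lay within the cycling range, and the ranges of the senescent states did not overlap. Footprints rose by 1.68 ± 0.12 with radiation (edgeR adjusted p = 2.93e-07) and by 2.07 ± 0.12 with etoposide (2.76e-08), and by less in quiescent cells (0.42 ± 0.12, adjusted p = 0.0235) and under thapsigargin (0.56 ± 0.13, adjusted p = 0.00446). The quiescent call was lost without cycling Ribo-seq replicate 2 (adjusted p = 0.0932) or 3 (0.068), without quiescent replicate 3 (0.0636), and when only these 2 states were fitted (0.0817). The thapsigargin call was lost without thapsigargin Ribo-seq replicate 1 (0.42, adjusted p = 0.0647).

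CDKN1B encodes p27, which restrains CDK2 and is itself destroyed by the SKP2 ubiquitin ligase, so its protein is known to follow degradation and translation more than mRNA. Its mRNA level was 75.0 and 80.1 CPM in cycling, 78.0, 61.8 and 88.3 at contact inhibition, 50.8, 50.9 and 48.4 after radiation, 39.2, 34.4 and 33.5 after etoposide and 61.6 and 44.8 CPM after thapsigargin. The quiescent libraries spanned the cycling ones, and the etoposide libraries were below all others. CDKN1B fell by 0.63 ± 0.16 on the log2 scale with radiation (edgeR adjusted p = 0.00785), by 1.12 ± 0.16 with etoposide (0.000126) and by 0.54 ± 0.18 under thapsigargin (0.0389). The radiation call was lost without cycling RNA-seq replicate 2 (-0.58, adjusted p = 0.0619). The thapsigargin call was lost without either cycling library (adjusted p = 0.103 and 0.174), without thapsigargin RNA-seq replicate 2 (-0.31, adjusted p = 0.258) and when only these 2 states were fitted (0.148).

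The footprints of CDKN1B did not follow the mRNA under thapsigargin. They were 64.0, 60.4 and 55.5 CPM in cycling, 71.4, 65.3 and 73.5 at contact inhibition, 52.8, 51.3 and 49.7 after radiation, 31.0, 31.3 and 30.9 after etoposide and 119.8 and 104.8 CPM after thapsigargin. Both thapsigargin libraries were above every other library, while in RNA-seq both were below the cycling range. Footprints rose by 0.91 ± 0.11 under thapsigargin (edgeR adjusted p = 3.72e-05) and fell by 0.95 ± 0.10 with etoposide (8.07e-06). With radiation they differed by -0.22 ± 0.10 and in quiescent cells by 0.22 ± 0.10, neither called (adjusted p = 0.0925 and 0.118). Without thapsigargin Ribo-seq replicate 1 or 2 the rise remained called.

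CDKN1C, which encodes p57, an imprinted inhibitor best known from embryonic growth control, was among the less counted members, with 93 to 287 RNA-seq reads a library. Its mRNA level was 5.4 and 8.87 CPM in cycling, 10.7, 9.29 and 9.23 at contact inhibition, 8.57, 8.01 and 9.43 after radiation, 4.26, 2.74 and 4.07 after etoposide and 4.73 and 3.79 CPM after thapsigargin. The etoposide and thapsigargin libraries were below all others, and the 2 cycling libraries were far apart. CDKN1C fell by 0.94 ± 0.24 with etoposide against cycling cells (edgeR adjusted p = 0.00797) and by 1.40 ± 0.22 against quiescent cells (0.000207). Without cycling RNA-seq replicate 2 the first difference was -0.55 and not called (adjusted p = 0.166). Under thapsigargin the mRNA difference was -0.74 ± 0.26 and not called (adjusted p = 0.0551). It was called by DESeq2 (-0.72, adjusted p = 0.031) and without cycling RNA-seq replicate 1 (-1.06, adjusted p = 0.0256), and was -0.35 without cycling replicate 2 (adjusted p = 0.477). Reads on the opposite strand of CDKN1C made up 5.67% of its RNA-seq reads on both strands, the highest share of the 7 genes.

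CDKN1C footprints were 10.4, 10.1 and 5.76 CPM in cycling, 14.1, 11.5 and 19.1 at contact inhibition, 7.54, 9.06 and 12.6 after radiation, 4.55, 3.73 and 4.51 after etoposide and 1.09 and 2.09 CPM after thapsigargin. The thapsigargin values rest on 2 and 4 reads. Against 294 reads in the cycling libraries, the ratio of CPM was 0.179, with a 95% interval for counting error alone of 0.0651 to 0.394, and edgeR gave a fall by 2.45 ± 0.55 on the log2 scale (adjusted p = 0.00288). Footprints fell by 1.04 ± 0.30 with etoposide (edgeR adjusted p = 0.017), a call lost without cycling Ribo-seq replicate 1 (0.0648) or 2 (0.0644) or etoposide replicate 2 (0.0755). In quiescent cells the difference of 0.76 ± 0.27 was not called (adjusted p = 0.0555), but was without quiescent Ribo-seq replicate 2 (0.94, adjusted p = 0.037) and by DESeq2 (0.79, adjusted p = 0.0283).

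CDKN2B and CDKN2A, the neighbours on chromosome 9, rose together in quiescent and irradiated cells. CDKN2B encodes p15, a known target of TGF-beta signalling. In RNA-seq it had 43.0 and 40.6 CPM in cycling, 104, 93.9 and 114 at contact inhibition, 98.9, 89.9 and 93.3 after radiation, 81.4, 79.6 and 93.4 after etoposide and 21.3 and 26.9 CPM after thapsigargin. All arrested libraries were at or above 79.6 CPM, with overlapping ranges between irradiated cells and each of the other arrested states, and both thapsigargin libraries were below the cycling ones. CDKN2B rose 2.49-fold in quiescent cells (log2 1.31 ± 0.14, edgeR adjusted p = 0.000218), 2.25-fold with radiation (1.17 ± 0.14, adjusted p = 2.35e-05) and 2.03-fold with etoposide (1.02 ± 0.14, adjusted p = 6.69e-05). It fell by 0.80 ± 0.15 under thapsigargin (adjusted p = 0.00164), a call lost when only the thapsigargin and cycling libraries were fitted (adjusted p = 0.0541).

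CDKN2B footprints were 10.6, 6.70 and 12.3 CPM in cycling, 18.2, 21.2 and 33.7 at contact inhibition, 22.5, 27.9 and 35.4 after radiation, 31.2, 24.4 and 31.1 after etoposide and 7.62 and 10.4 CPM after thapsigargin. The cycling and thapsigargin ranges overlapped, and every arrested library lay above both. Footprints rose by 1.32 ± 0.27 in quiescent cells (edgeR adjusted p = 0.00387), by 1.54 ± 0.28 with radiation (0.000783) and by 1.56 ± 0.28 with etoposide (0.000668). The difference of -0.11 ± 0.41 under thapsigargin was not called (adjusted p = 0.844), and its 95% interval ran from -0.98 to 0.76.

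CDKN2A had 279 to 1098 RNA-seq reads a library, and counts per gene cannot separate p16 from p14ARF. In RNA-seq it had 14.2 and 14.5 CPM in cycling, 37.1, 24.2 and 19.7 at contact inhibition, 26.0, 27.6 and 22.3 after radiation, 16.8, 19.6 and 20.6 after etoposide and 19.7 and 19.3 CPM after thapsigargin. Every treated or quiescent library was above the cycling ones, and the quiescent libraries spread the most. CDKN2A rose by 0.92 ± 0.22 in quiescent cells (edgeR adjusted p = 0.014) and by 0.82 ± 0.22 with radiation (0.0112). It was not called with etoposide (0.41 ± 0.22, adjusted p = 0.17) or thapsigargin (0.44 ± 0.24, adjusted p = 0.195). Without cycling RNA-seq replicate 1 or 2 neither rise was called (adjusted p = 0.118 and 0.0879 at contact inhibition, 0.0834 and 0.0647 in irradiated cells). The quiescent call was also lost with only these 2 states fitted (adjusted p = 0.082), while etoposide was called in that way (0.40, adjusted p = 0.0414) and with reads of both strands (0.63, adjusted p = 0.0439).

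CDKN2A footprints were 41.8, 20.0 and 21.5 CPM in cycling, 50.2, 43.9 and 75.0 at contact inhibition, 50.7, 61.5 and 53.9 after radiation, 68.3, 57.2 and 47.5 after etoposide and 30.5 and 18.3 CPM after thapsigargin. All 9 arrested libraries were above the cycling ones, of which replicate 1 stood apart. Footprints rose by 1.03 ± 0.28 in quiescent cells (edgeR adjusted p = 0.0172), by 0.99 ± 0.29 with radiation (0.0133) and by 1.06 ± 0.28 with etoposide (0.0101), about 2-fold in each. Without cycling Ribo-seq replicate 2 none of these was called (adjusted p = 0.0777, 0.0606 and 0.0501). Without replicate 3 the quiescent and irradiated calls were lost (0.0779 and 0.0509), and the quiescent call also without quiescent replicate 3 (0.0518) and with only these 2 states fitted (0.0775). The difference between etoposide and radiation was -0.06 in the direction of radiation minus etoposide, with a 95% interval from -0.67 to 0.54.

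CDKN2B-AS1, the long noncoding RNA transcribed on the opposite strand across this locus, had 36 to 109 RNA-seq reads a library. Its level was 2.96 and 3.27 CPM in cycling, 3.25 to 4.39 at contact inhibition, 1.44 to 1.96 after radiation, 1.26 to 1.39 after etoposide and 1.79 to 2.19 CPM after thapsigargin. Reads on the strand opposite to it made up 51.2% of those on both strands. It was not tested, as the tests took protein-coding genes. Its irradiated and etoposide ranges were below the cycling one, whereas those of CDKN2A and CDKN2B were above it. Under thapsigargin its range and that of CDKN2B were both below the cycling one, and that of CDKN2A was above it. In quiescent cells its mean was 3.75 CPM against 3.11 in cycling, with overlapping ranges, where CDKN2A and CDKN2B were higher. The share over all genes of such ranges was not counted. Counted without regard to strand, CDKN2A kept 89.1% of its stranded RNA-seq reads.

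CDKN2C, which encodes p18, was the member with the largest change. Its mRNA level was 30.9 and 31.3 CPM in cycling, 13.3, 16.2 and 12.7 at contact inhibition, 3.68, 3.75 and 4.17 after radiation, 3.29, 2.77 and 2.56 after etoposide and 11.9 and 17.0 CPM after thapsigargin. Cycling libraries were highest, senescent libraries lowest, and the quiescent and thapsigargin ranges between them overlapped. CDKN2C fell by 3.01 ± 0.19 on the log2 scale with radiation (8.04-fold lower, edgeR adjusted p = 1.26e-07) and fell by 3.44 ± 0.19 with etoposide (10.8-fold lower, 2.68e-08). It fell by 1.15 ± 0.18 in quiescent cells (0.00129) and by 1.11 ± 0.20 under thapsigargin (0.00137). Against quiescent cells it fell by 1.86 ± 0.17 with radiation (1.06e-05) and by 2.29 ± 0.18 with etoposide (7.28e-07). So the INK4 genes split, with p15 mRNA higher and p18 mRNA lower in all 3 arrested states.

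CDKN2C footprints were 18.6, 18.2 and 19.5 CPM in cycling, 12.9, 14.1 and 13.2 at contact inhibition, 4.56, 2.64 and 3.71 after radiation, 1.93, 0.933 and 0.867 after etoposide and 19.1 and 22.4 CPM after thapsigargin. The order of the arrested states was that of the mRNA, but the thapsigargin libraries overlapped the cycling ones. Footprints fell by 2.30 ± 0.24 with radiation (edgeR adjusted p = 8.73e-06) and by 3.91 ± 0.27 with etoposide (1.07e-07). In quiescent cells they differed by -0.49 ± 0.19 and were not called (adjusted p = 0.0933), though they were by DESeq2 (adjusted p = 0.00948) and with only these 2 states fitted (0.0373). Under thapsigargin the difference was 0.15 ± 0.25 (adjusted p = 0.655).

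CDKN2D, which encodes p19, was called in no comparison of either assay with all libraries in the fit. In RNA-seq it had 7.92 and 8.04 CPM in cycling, 7.82, 6.64 and 4.27 at contact inhibition, 8.15, 7.82 and 8.57 after radiation, 6.36, 8.44 and 7.09 after etoposide and 8.24 and 8.68 CPM after thapsigargin. Neighbouring states in the order of means overlapped throughout. Some states farther apart in that order did not overlap: the quiescent libraries were below the cycling and irradiated ones, and the thapsigargin libraries above the cycling ones. None of these differences was called. The largest mRNA difference from cycling cells was -0.35 ± 0.22 in quiescent cells (edgeR adjusted p = 0.327), with a 95% interval from -0.83 to 0.12. Its footprints ranged from 3.79 to 7.70 CPM outside thapsigargin. The thapsigargin Ribo-seq libraries held 0 and 24 reads (0 and 12.5 CPM), where 3 reads in the first library, the limit that a count of 0 allows, would be 1.63 CPM, so the fitted difference of 0.26 ± 0.65 joins 2 unlike libraries. Without that first library the difference was 1.22, on 1 thapsigargin library of 24 reads. Without the library of 24 reads it was -8.63, on 1 thapsigargin library of 0 reads, so the direction is open.

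**Figure D2:**
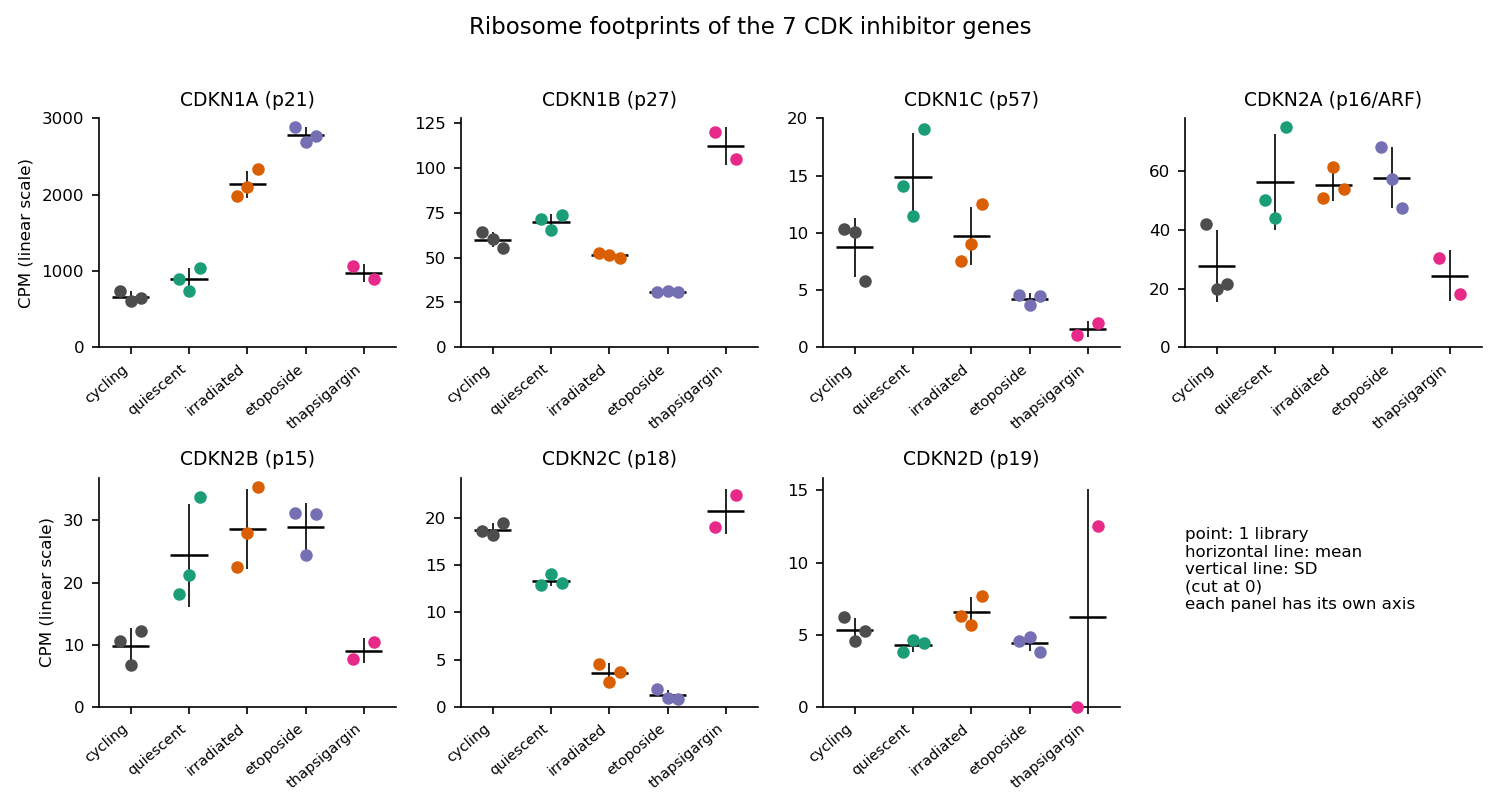
Ribosome footprints of each CDK inhibitor gene in CPM on a linear axis that starts at 0, by state. Points are libraries, horizontal lines means and vertical lines SD, cut at 0. CDKN1B is highest in the thapsigargin libraries (119.8 and 104.8 CPM), CDKN1C lowest there (1.09 and 2.09 CPM), and the CDKN2D thapsigargin libraries are at 0 and 12.5 CPM.

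**Figure D3:**
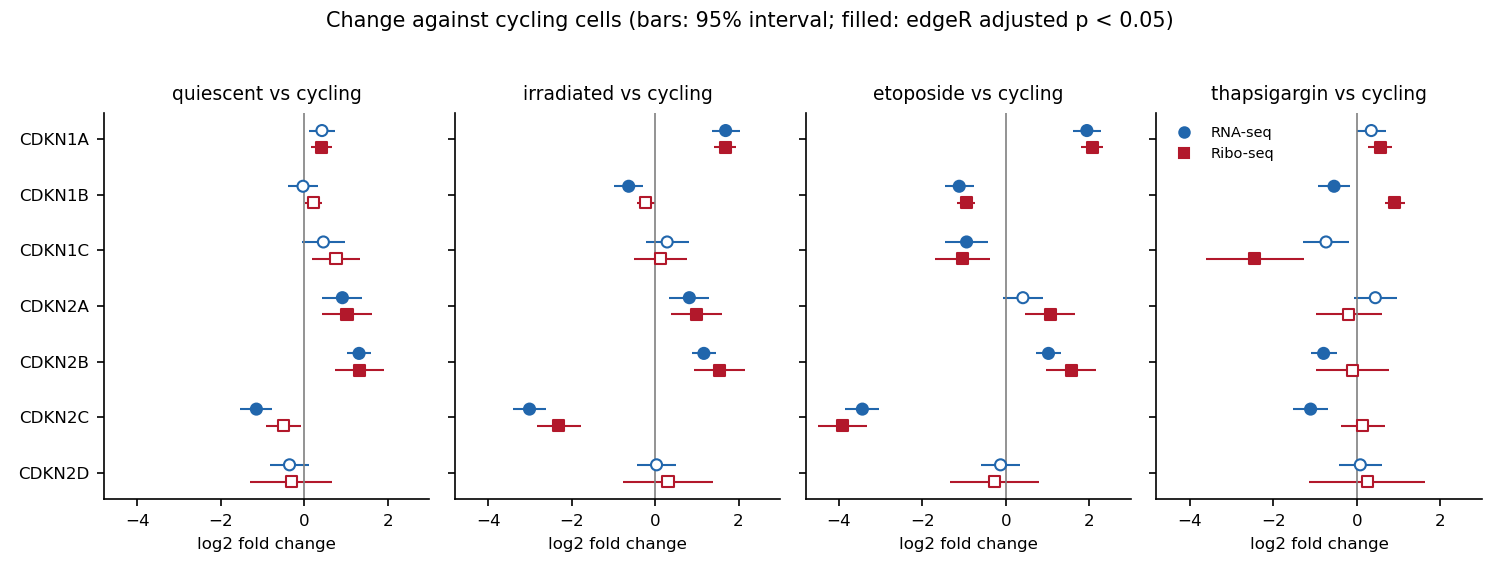
Log2 fold change of mRNA (circles) and footprints (squares) against cycling cells, with 95% intervals, in 4 panels by state. Filled symbols passed an edgeR adjusted p of 0.05. CDKN2C reaches -3.44 in mRNA and -3.91 in footprints with etoposide, and CDKN1B has mRNA below 0 and footprints above 0 under thapsigargin.

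The 2 ways to senescence were compared with each other, since both end in arrest after DNA damage. In RNA-seq 2 of the 7 genes were called, both higher in irradiated cells (all genes: 9.68% higher and 12.9% lower). CDKN1C was higher by 1.23 ± 0.22 (edgeR adjusted p = 0.00137) and CDKN1B by 0.49 ± 0.15 (0.0281). With only these 2 states fitted, CDKN1A (-0.30, adjusted p = 0.0316) and CDKN2A (0.36, adjusted p = 0.0334) were called as well. The CDKN1B call was lost in 5 of the 6 fits that left out 1 library (0.44 to 0.51, adjusted p = 0.0628 to 0.102). In Ribo-seq 3 of 7 were higher and 1 lower (all genes: 7.77% and 13.9%), with CDKN2C higher in irradiated cells by 1.61 ± 0.33 (adjusted p = 0.00377), CDKN1C by 1.17 ± 0.32 (0.0191) and CDKN1B by 0.72 ± 0.10 (0.000657), and CDKN1A lower by -0.38 ± 0.12 (0.0356). The CDKN1A call was lost in all 6 fits without 1 library, and the CDKN1C call without irradiated Ribo-seq replicate 3 (adjusted p = 0.0869) or etoposide replicate 2 (0.0754). For CDKN2C the mRNA difference was 0.43 ± 0.18 and not called (adjusted p = 0.106), and all etoposide libraries together held 22 CDKN2C footprints.

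Set against quiescent cells, irradiated cells had 1 gene called higher and 2 lower in RNA-seq (all genes: 9.01% and 9.71%) and 1 and 2 in Ribo-seq (6.92% and 7.62%). CDKN1A was the higher one in both assays, and CDKN1B and CDKN2C were the lower ones, CDKN1B by 0.60 ± 0.15 in mRNA (edgeR adjusted p = 0.0117) and by 0.45 ± 0.10 in footprints (0.00829). Etoposide-treated cells had 1 higher and 4 lower in RNA-seq (all genes: 21.1% and 20.6%) and 1 and 3 in Ribo-seq (19.2% and 16.1%). CDKN1A was again the higher one, and CDKN1B, CDKN1C and CDKN2C were lower in both assays. The remaining RNA-seq call, CDKN2A at -0.51 ± 0.19 (adjusted p = 0.0482), was lost in 5 of 6 fits that left out 1 library and in 4 further settings, and its ranges overlapped. CDKN2B, risen in all arrested states, did not separate senescence from quiescence: the differences were -0.15 and -0.29 in mRNA (adjusted p = 0.428 and 0.0568) and 0.22 and 0.24 in footprints (0.647 and 0.508). Its mRNA difference with etoposide was called without quiescent RNA-seq replicate 2 (-0.36, adjusted p = 0.036) or etoposide replicate 3 (-0.37, adjusted p = 0.0448).

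Translational efficiency (TE), the ratio of footprints to mRNA, was tested as the interaction of assay and state over all 27 libraries. Outside thapsigargin no CDK inhibitor was called: 0 of 7 in quiescent (all genes: 0.00854%), irradiated (0.0512%) and etoposide-treated cells (0.0683%) against cycling, and 0 of 7 between the senescent states (0%), by edgeR and by DESeq2. At an unadjusted p under 0.05 there were 1, 2, 0 and 2 members, and 405, 783, 448 and 770 of all 11713 genes. Between the senescent states DESeq2 called 6 genes. With only the groups compared in the fit, the calls over all genes were 760 in place of 6 with radiation, 28 in place of 8 with etoposide, 604 in place of 0 between the senescent states and 0 in place of 1 in quiescent cells. CDKN2C was the one in quiescent cells (0.78 ± 0.26) and, with CDKN1B (0.53 ± 0.20), one of 2 in irradiated cells (0.83 ± 0.31). The same 2 genes were those between the senescent states, CDKN2C at 1.35 ± 0.38 and CDKN1B at 0.40 ± 0.19 (irradiated minus etoposide). The edgeR adjusted p was at least 0.53 for every member in these 4 comparisons. The interval for CDKN1A was among the narrowest, -0.30 to 0.53 for radiation and -0.33 to 0.50 for etoposide, so a change of its TE beyond those bounds was not seen.

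Thapsigargin was different, with 2 of 7 members called, both higher (all genes: 7.86% higher and 12.9% lower). CDKN1B had the larger change: its footprints per mRNA, as a ratio of mean CPM, were 0.773 in cycling and 2.11 in thapsigargin-treated cells, and 0.869 to 1.02 in the other states. The TE of CDKN1B rose by 1.42 ± 0.22 (2.68-fold, edgeR adjusted p = 0.000104), with a 95% interval from 0.97 to 1.87. For CDKN2C the ratio was 0.603 in cycling and 1.44 in thapsigargin-treated cells, and TE rose by 1.23 ± 0.31 (2.34-fold, adjusted p = 0.00696). The CDKN2C call was lost when only these 2 states were fitted (1.195, adjusted p = 0.0578). In CDKN2C the mRNA was lower and the footprints were not called, whereas in CDKN1B the mRNA was lower and the footprints higher.

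CDKN1C had the opposite sign, with a ratio of 1.22 in cycling and 0.372 in thapsigargin-treated cells and a TE change of -1.74 ± 0.64 that was not called (edgeR adjusted p = 0.0559). It was called with the number of the library as a block (-1.98, adjusted p = 0.0349), without cycling RNA-seq replicate 2 (-2.13, adjusted p = 0.0288) and without cycling Ribo-seq replicate 3 (-1.91, adjusted p = 0.0331). CDKN1A (0.18 ± 0.22), CDKN2A (-0.66 ± 0.45), CDKN2B (0.67 ± 0.41) and CDKN2D (0.15 ± 0.65) were not called. The median over all genes was -0.15 in TE and -0.11 in footprints under thapsigargin, so the values of the members stand that much higher relative to the median gene. The cycling Ribo-seq libraries were counted on a shorter gene list than the thapsigargin ones, and whether the 2 lists bound each gene alike was not tested.

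**Figure D4:**
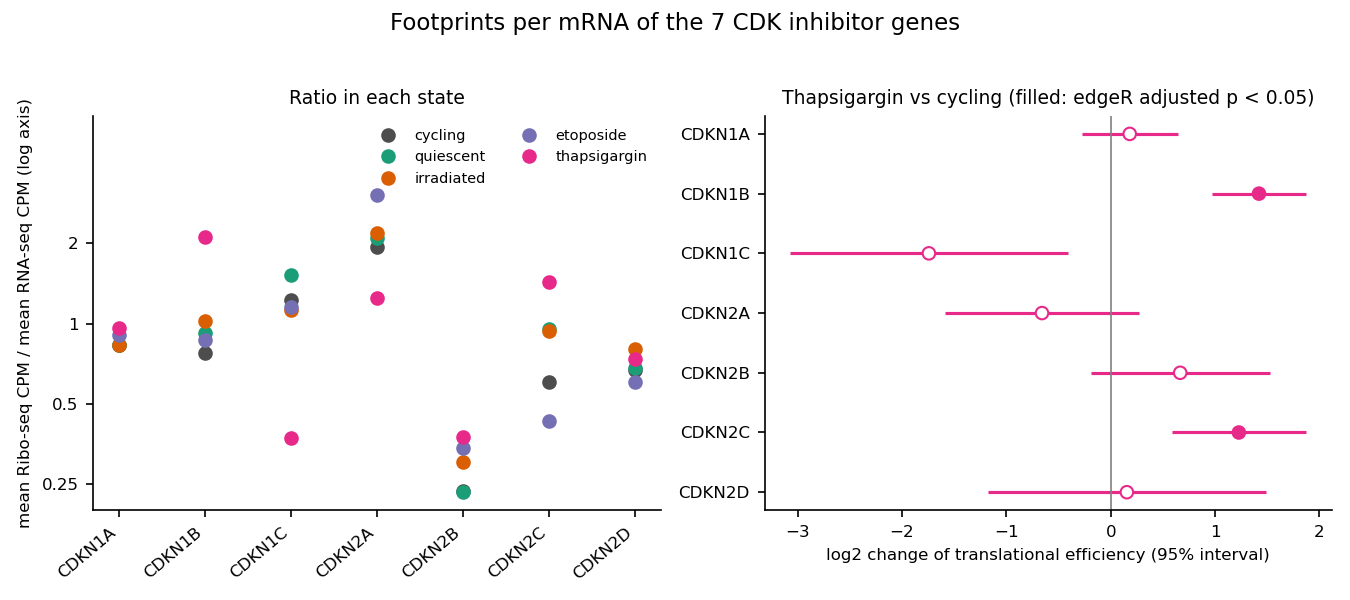
Left, mean Ribo-seq CPM over mean RNA-seq CPM of each gene in each state on a log axis. Right, log2 change of TE under thapsigargin against cycling cells with its 95% interval, filled where the edgeR adjusted p is under 0.05. CDKN1B (1.42) and CDKN2C (1.23) are filled, and CDKN1C (-1.74) lies on the other side of 0.

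A list of 42 partners, targets and regulators of the inhibitors was read in the same fits. In RNA-seq 11 were called higher and 17 lower in irradiated cells, 8 and 20 in etoposide-treated, 5 and 9 in quiescent and 9 and 4 in thapsigargin-treated cells. Over all genes the shares called higher and lower were 16.2% and 18.8%, 16.8% and 17.8%, 5.18% and 10.4%, and 11.7% and 12.8% in the same order. In Ribo-seq, where 40 were tested, the counts were 11 and 13, 8 and 17, 5 and 7, and 10 and 9 (all genes: 17.2% and 22.6%, 16.4% and 17.6%, 7.09% and 14.6%, and 20% and 24.4%). The median log2 fold change of the list in RNA-seq was -0.10, -0.31, -0.04 and 0.16 in these states.

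Among the 11 cyclins and kinases that the inhibitors bind, 5 rose and 5 fell in irradiated cells (all genes: 16.2% and 18.8%) and 5 rose and 6 fell in etoposide-treated cells (16.8% and 17.8%). The risers with radiation included all 3 D cyclins and CDK6, partners in the complexes that INK4 proteins target. CCND2, which encodes cyclin D2, had 45.2 and 47.6 CPM in cycling, 109 to 129.9 at contact inhibition, 886 to 998 after radiation and 797 to 1004 CPM after etoposide. These ranges were apart except for the senescent ones, and CCND2 rose by 4.33 ± 0.15 with radiation (edgeR adjusted p = 3.24e-09), 4.30 ± 0.15 with etoposide (2.99e-09) and 1.34 ± 0.13 in quiescent cells (0.000188). The S phase and mitotic members CDK2, CCNA2, CDK1 and CCNB1 fell in all 3 arrested states, and none of these 4 was called in RNA-seq under thapsigargin.

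In the RB and E2F group of 11 genes, 1 rose and 7 fell with radiation (all genes: 16.2% and 18.8%), 1 rose and 8 fell with etoposide (16.8% and 17.8%) and 2 fell in quiescent cells, near the 10.4% of all genes called lower there. E2F1, the activator that RB restrains, fell by 1.57 ± 0.20 with radiation (edgeR adjusted p = 4.36e-05). RBL1, which encodes the RB relative p107, fell by 1.74 ± 0.20 with etoposide (2.25e-05). RB1 itself was called in none of the 4 comparisons with cycling cells, in either assay.

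Of the regulators, MDM2, a ubiquitin ligase that is induced by DNA damage like p21, was followed beside CDKN1A. It had 364 and 370 CPM in cycling, 462 to 509 at contact inhibition, 766 to 809.6 after radiation, 757 to 803 after etoposide and 347 to 428 CPM after thapsigargin. MDM2 rose by 1.11 ± 0.11 with radiation (edgeR adjusted p = 6.94e-06), 1.10 ± 0.11 with etoposide (6.44e-06) and 0.41 ± 0.11 in quiescent cells (0.0212), and was not called under thapsigargin (0.08 ± 0.12).

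EZH2, the methyltransferase of Polycomb complex 2 that represses CDKN2A, had 34.2 and 38.0 CPM in cycling, 23.6 to 31.5 at contact inhibition, 7.0 to 7.66 after radiation and 5.22 to 6.17 CPM after etoposide. It fell by 2.31 ± 0.15 with radiation (edgeR adjusted p = 1.66e-07) and by 2.68 ± 0.15 with etoposide (2.88e-08). In quiescent cells its difference of -0.44 ± 0.15 fell just short of a call (adjusted p = 0.0594). Of the 5 genes of the Polycomb list, 1 was called higher and 2 lower with radiation in RNA-seq (all genes: 16.2% and 18.8%). With etoposide 0 were higher and 2 lower (16.8% and 17.8%). The median log2 fold change of these 5 genes was 0.23 with radiation and -0.03 with etoposide. CDKN2A mRNA differed by -0.09 in the direction irradiated minus quiescent (adjusted p = 0.781), and a relation of its level to EZH2 was not tested. EZH2 footprints rose by 1.13 ± 0.18 under thapsigargin (0.000233) with mRNA at -0.26 ± 0.16 (0.261). ID1, which holds back activation of CDKN2A by ETS factors, fell by 2.22 ± 0.24 with radiation (1.11e-05) and by 1.26 ± 0.23 in quiescent cells (0.00316), but not with etoposide (0.27 ± 0.23, adjusted p = 0.404). ETS2 rose with etoposide, by 1.00 ± 0.11 (1.25e-05). Of the 3 ETS and ID genes listed, 1 was called higher and 1 lower with etoposide in RNA-seq (all genes: 16.8% and 17.8%). With radiation 1 was higher and 2 were lower (16.2% and 18.8%).

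The ubiquitin ligase that removes p27 was read for CDKN1B. SKP2, its substrate receptor, had 77.6 and 82.6 CPM in cycling, 49.7 to 60.6 at contact inhibition, 59.1 to 73.8 after radiation, 40.5 to 56.4 after etoposide and 24.0 and 26.97 CPM after thapsigargin. SKP2 fell by 1.65 ± 0.17 under thapsigargin (edgeR adjusted p = 2.13e-05), 0.72 ± 0.15 with etoposide (0.00215) and 0.54 ± 0.15 in quiescent cells (0.0268), and its footprints fell by 1.83 ± 0.20 under thapsigargin (1.33e-05). CKS1B, the cofactor that lets SKP2 bind p27, fell in mRNA by 1.49 ± 0.16 with radiation (1.33e-05) and 1.67 ± 0.16 with etoposide (4.01e-06). In Ribo-seq, of the 4 listed genes for p27 degradation, 1 was called higher and 0 lower with radiation (all genes: 17.2% and 22.6%). With etoposide 0 were higher and 2 lower (16.4% and 17.6%). FOXO3, an activator of CDKN1B, rose by 0.77 ± 0.11 with radiation (0.000149). FOXO1 rose by 1.88 ± 0.61 with radiation (0.0282) and by 3.04 ± 0.59 under thapsigargin (0.00257), and with etoposide was at 0.91 ± 0.64 and not called (0.29). Only 1 of the 2 FOXO genes passed the low-count filter in Ribo-seq. MYC, a repressor of CDKN2B and CDKN1A together with its partner ZBTB17, fell by 0.37 ± 0.13 with etoposide (0.0434), and ZBTB17 with radiation was at -0.09 ± 0.15 (0.659). Under thapsigargin MYC rose by 0.68 ± 0.14 (0.00422) and ZBTB17 by 0.70 ± 0.16 (0.00622). SMAD3, a carrier of the TGF-beta signal, fell there by 0.89 ± 0.24 (0.0161). Of the 2 TGF-beta genes listed, 1 was called lower under thapsigargin in RNA-seq (all genes: 12.8%) and 2 in Ribo-seq (24.4%). CDKN2B was there at -0.80 ± 0.15 in mRNA (0.00164) and -0.11 ± 0.41 in footprints (0.844). CDKN1A was at 0.35 ± 0.16 in mRNA (0.137) and 0.56 ± 0.13 in footprints (0.00446). A link between these values was not tested. Neither TGF-beta gene of the list was called in RNA-seq in senescent cells: SMAD3 was at 0.47 ± 0.22 with radiation (0.112) and TGFB1 at -0.51 ± 0.29 with etoposide (0.19). In Ribo-seq 1 of these 2 genes was called lower with radiation (all genes: 22.6%) and 0 with etoposide (17.6%).

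**Figure D5:**
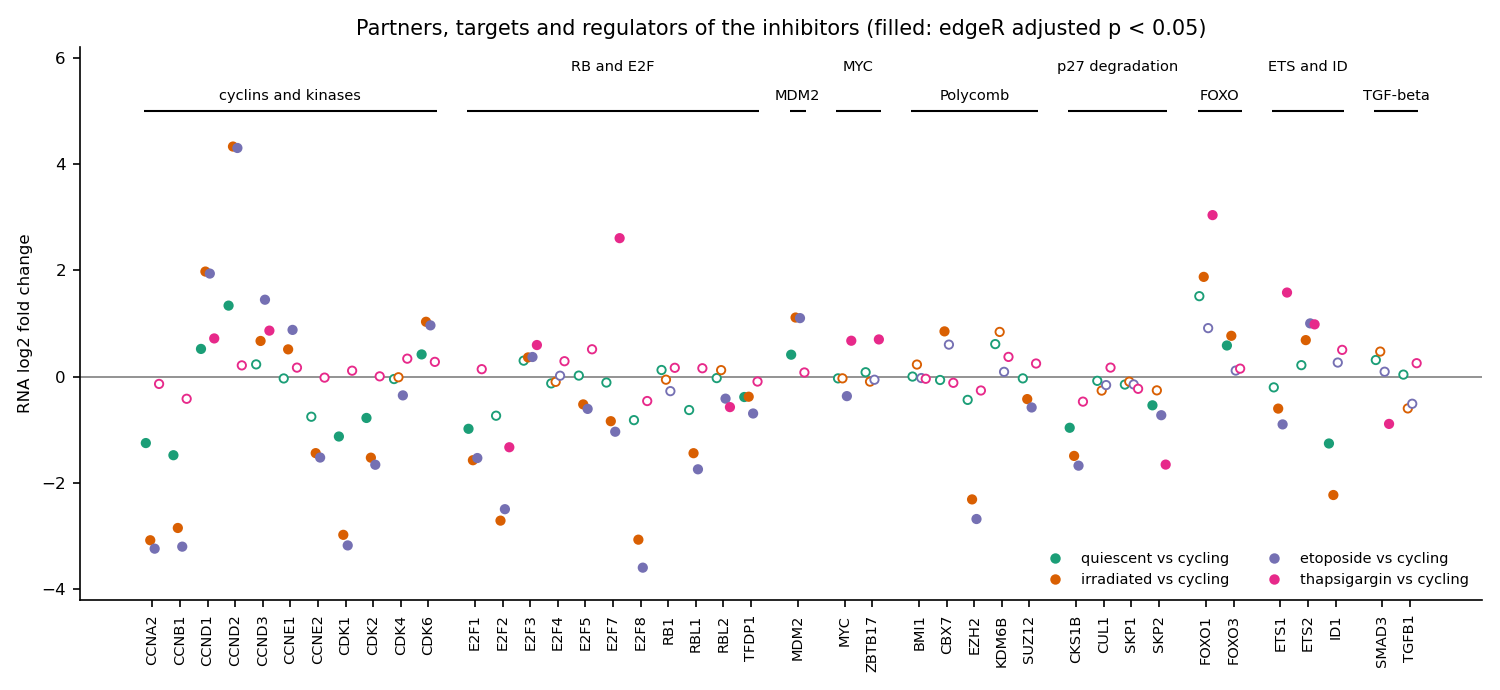
RNA-seq log2 fold change of the listed genes against cycling cells, grouped by role, 1 point per gene and state, filled where the edgeR adjusted p is under 0.05. CCND2 stands highest in the senescent states (4.33 with radiation and 4.30 with etoposide), and EZH2 is among the points below -2 there (-2.31 and -2.68).

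For each inhibitor the genes with the most similar profile were listed by Pearson's r of log2 CPM over the 13 RNA-seq libraries, among 13290 genes. This is a description of libraries that share their state and depth, with no test. CDKN2C was most like LMNB1 (0.992), which encodes lamin B1, CDCA7 (0.986) and PSRC1 (0.985). CDKN1A was most like BLNK (0.985), SHC1 (0.984) and HAGH (0.982), and CDKN2B like YBEY (0.979), SULT1C4 (0.976) and CAMK1D (0.97). CDKN1B was most like FSBP (0.975), TAF9B (0.969) and PTBP2 (0.967), and CDKN1C like NINL (0.968), RMND5A (0.959) and SPATA6 (0.959). CDKN2A was most like LIMK1 (0.912), DACT3 (0.889) and GPX4 (0.882), and C4orf48 (0.897) and PEX10 (0.894) were among the 3 nearest to CDKN2D. Among the inhibitors themselves, CDKN1A and CDKN2C ran opposite to each other (-0.969), CDKN1B went with CDKN2C (0.799), and the neighbours CDKN2A and CDKN2B were at 0.511.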

How the data were processed

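RNA-seq and Ribo-seq libraries of IMR90 cells were deposited as raw counts of reads per gene, unstranded and for each strand. Per the submitters' processing notes the tools were bcl2fastq, STAR 2.7.10b and DESeq2 1.36.0 and the build hg38. The annotation and the trimming are not given in the sources used here. The authors counted 12 Ribo-seq libraries on a list of 60664 gene IDs and the others on 62703, of which 60534 are shared and were used. Per the labels' protocols the RNA-seq kit is read on the reverse strand and the Ribo-seq kit on the forward strand, and the column of the kit's strand was taken. The protocols state different RNase I digestion times in 2 places. The 19306 protein-coding genes were kept.

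From these counts edgeR 4.0.16 (R 4.3.3) tested 13291 genes in RNA-seq, 11764 in Ribo-seq and 11713 for translational efficiency, after its low-count filter, with TMM scaling and a robust quasi-likelihood fit over all 5 states. SE is the log2 fold change over the root of F, and CPM are TMM-scaled. The self-test on simulated data was run first. Alternatives were DESeq2 1.42.0, no filter, all biotypes, unstranded counts, only the groups compared, a replicate block and each library left out. Intervals for counts cover counting error only. Genes given with values outside the 7 inhibitors came from a list of 42, namely the one with the smallest adjusted p in RNA-seq per role and senescent state, and always MDM2, SKP2 and EZH2. One further gene of that rule and one of the genes listed by likeness are not reported here. CCND1, CCND3, CDK6, CDK2, CCNA2, CDK1, CCNB1 and RB1, named without values, were chosen from the list after their values were seen. Same-numbered cycling and quiescent Ribo-seq libraries deviated together over genes (r = 0.154, 0.272 and 0.264), and there the fit with the number as a block changed no call of an inhibitor. The members and lists were chosen with earlier results of these data known.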

Additional observations from a re-analysis of the deposited data

Results flagged for a closer look

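The effects of radiation and etoposide, both against cycling cells, differed by the test of irradiated against etoposide-treated cells in 6 cases. The values are log2 differences, irradiated minus etoposide, by edgeR's quasi-likelihood test with Benjamini-Hochberg adjustment. In mRNA, CDKN1C differed by 1.23 (adjusted p = 0.00137) and CDKN1B by 0.49 (0.0281). In footprints, CDKN2C differed by 1.61 (0.00377), CDKN1C by 1.17 (0.0191), CDKN1B by 0.72 (0.000657) and CDKN1A by -0.38 (0.0356). In each of these 6 cases the 3 irradiated libraries were all on one side of the 3 etoposide libraries. So were those of uncalled CDKN1A, CDKN2A and CDKN2C mRNA and CDKN2D footprints, and the share over all genes was not counted. The calls came from these same libraries, so the separation is no further support for them. The CDKN1A footprint call was lost in all fits that left out a library. The CDKN1B mRNA call was lost in most of them and the CDKN1C footprint call in some.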

How the results depend on the processing

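Of 1362 values of single inhibitors under an alternative, 1264 kept their direction and side of the threshold, 50 lost a call, 19 gained one and 29 changed sign, 0 of them where the value was called with all libraries. With only the groups compared in the fit, 4 inhibitors were called between the senescent states in RNA-seq (2 with all states), 1 under thapsigargin in RNA-seq (3) and 1 for TE under thapsigargin (2), and DESeq2 called 6 footprint differences in quiescent cells (3). Over all genes the thapsigargin fits called 1508 in RNA-seq and 1052 for TE, also fewer than with all states. The other 2 counts stand without such a number and are not read as particular to the inhibitors. The cause was not tested. Leaving out 1 library at a time, the number of inhibitors called in RNA-seq ranged from 3 to 5 (irradiated against cycling) and 1 to 2 (irradiated against etoposide). In Ribo-seq it ranged from 2 to 3 (irradiated against etoposide) and 1 to 4 (quiescent against cycling). Over all genes the lowest number called also fell in these same comparisons, as given in the last paragraph, so the ranges are not read as particular to the inhibitors. Sign changes without a library gave these ranges. In RNA-seq they were -0.15 to 0.11 for CDKN1B in quiescent cells, -0.034 to 0.68 for CDKN1C with radiation and -0.28 to 0.22 for CDKN2A between irradiated and quiescent cells. In Ribo-seq CDKN1C with radiation ran from -0.068 to 0.31. CDKN2A footprints ran from -0.13 to 0.28 (etoposide against quiescent), -0.165 to 0.095 (irradiated against etoposide), -0.17 to 0.24 (irradiated against quiescent) and -0.61 to 0.23 (thapsigargin). CDKN2B footprints ran from -0.19 to 0.14 (irradiated against etoposide) and -0.34 to 0.11 (thapsigargin). CDKN2D footprints ran from -0.034 to 0.13 (etoposide against quiescent) and -8.63 to 1.22 (thapsigargin), and its TE under thapsigargin from -9.82 to 1.11, where the lowest values rest on the library with 0 reads. Without the filter, CDKN2D and CDKN2A footprints between etoposide and quiescent cells were at -0.021 and -0.035. DESeq2 put CDKN2B footprints between the senescent states at 0.0022.

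A correlation of deviations over 0.1 was found for 9 of 23 same-numbered RNA-seq pairs across states (13 of 44 with different numbers), 6 of 26 Ribo-seq pairs (5 of 52) and 6 of 13 pairs of assays within a state (2 of 22). All 3 pairs exceeded it for cycling and quiescent Ribo-seq, and for etoposide RNA-seq with Ribo-seq (0.134, 0.382 and 0.199). In the other sets the numbers were not taken as pairing. In quiescent against cycling footprints the block called 3 inhibitors, as without it. With the replicate number as a block, CDKN2B footprints under thapsigargin changed to 0.081 and CDKN2D TE to -0.040, CDKN2A between etoposide and quiescent mRNA lost its call, CDKN1C TE under thapsigargin gained one, and no number of inhibitors called moved by over 1.5 times.

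Over all genes, fitting only the groups compared called 853 in RNA-seq for quiescent cells (2068 with all states) and 1508 for thapsigargin (3256), 6020 in Ribo-seq for etoposide (4000) and 4136 between the senescent states (2551). For TE it called 1052 under thapsigargin (2429), 28 with etoposide (8), 760 with radiation (6), 604 between the senescent states and 0 in quiescent cells (1). DESeq2 called 40, 32, 6 and 6 for TE in etoposide-treated, irradiated, quiescent and between senescent states, the block 13, 3, 0 and 1. No filter gave 14 with etoposide and 2 in quiescent cells, and unstranded counts 0 in quiescent cells. Without 1 library the counts were lower by over 1.5 times at the lowest for quiescent cells (707 in RNA-seq and 1560 in Ribo-seq), etoposide (2611) and radiation (2779) in RNA-seq, thapsigargin (1592), irradiated against quiescent (1440 and 937), irradiated against etoposide (1841 and 1500) and TE under thapsigargin (1558 to 3772). Footprints of CDKN1C, CDKN2B, CDKN2C and CDKN2D rest on 0 to 24 reads in some libraries, which limits their precision.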
